A study of Mus musculus with 7 samples.

Results

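Rab genes encode small GTPases of the Ras superfamily, and the deposited table holds 57 of them among 28666 genes. They were taken by name alone, as every gene symbol made of Rab, a number and at most a letter and a further digit, so that Rab11a and Rab39 are included and Rab11fip5, Rabgap1l and Rabl genes are not. The rule uses no measured value. The counts and the FPKM (fragments per length of gene and per size of library) of all 57 were compared between immature and mature bone marrow derived dendritic cells (BMDCs). Dendritic cells take up antigen and present it to T cells, and their passage from an immature to a mature state is marked by a shift from uptake toward presentation at the surface.

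The libraries were 3 of immature and 4 of mature BMDCs. Both groups came from bone marrow of female C57BL/6 mice aged 6 to 8 weeks, differentiated for 7 days with GM-CSF at 20 ng/mL and IL-4 at 10 ng/mL and then kept in a Transwell system with MC38, a mouse colon adenocarcinoma line, so both groups shared their medium with tumor cells. The main text of the paper describes the sorted cells as taken after 24 h of DON, an antagonist of glutamine use, with the drug given to the tumor cells, whereas a legend names either DMSO or DON at 5 µM. In the paper's co-cultures the DON arm also held more glutamine in the medium than the DMSO arm, so these arms differed in more than the drug. The labels give no treatment for any library. The markers of the sort are not given either, so the 2 groups differ by an unstated gate. Replicates are separate samples in the labels, which do not say whether they came from separate cultures or mice, and p-values therefore measure the spread between these samples, which may be technical.

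A Rab protein is a switch that sits on a membrane when bound to GTP and is held in the cytosol, bound to a GDP dissociation inhibitor (GDI), when bound to GDP. Guanine nucleotide exchange factors (GEFs) load it with GTP, GTPase activating proteins (GAPs), most with a TBC domain, switch it off, and the loaded form recruits effectors such as tethers and motor adaptors. Each Rab works at certain compartments, so the set of Rab proteins in a cell is one description of its routes of vesicle traffic. In dendritic cells these routes carry antigen through endosomes and lysosomes, bring MHC molecules to the surface and release cytokines and vesicles.

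Total counts were 54846746 to 67973086 per library. Mature replicate 3 stood apart, with a summed FPKM over all genes of 381707 against 327714 to 337706 in the other 6 libraries, and each result that rests on it is given with and without it where the call changes. Dendritic cell markers were present throughout, with the 6 listed genes at a summed 3987 to 4130 FPKM in immature and 4920 to 6695 FPKM in mature libraries. The 6 markers of mature dendritic cells summed to 145 to 157 FPKM in immature and 1816 to 1969 FPKM in mature libraries, and all 6 passed, as higher, the criteria given with the Rab genes below. The list includes Cd80 and Cd86, whose rise would follow from the sort itself if it used these markers. The 6 macrophage markers moved the other way, from 507 to 528 FPKM down to 101.3 to 116 FPKM, and all 6 passed them as lower. The 6 heart muscle markers summed to at most 1.99 FPKM in immature libraries, 11.9 FPKM in mature replicate 1 and 161 to 177 FPKM in mature replicates 2 to 4, with 6 of 6 higher. The 6 kidney markers reached 189.5 FPKM in mature replicate 2 and at most 0.08 FPKM elsewhere, below the filter for testing. The part of any of these other cells in the values below was not tested. A fit with mature replicate 1 as the only mature library is given with the alternative settings below. That library also held heart muscle markers, at 11.9 FPKM. The 6 mast cell and basophil markers summed to 0.75 to 1.0 FPKM in immature and 3.65 to 5.25 FPKM in mature libraries, without overlap, with 1 of 3 tested genes higher. Neutrophil markers summed to at most 3.65 FPKM, lymphocyte markers to 0.73 FPKM and epithelial markers to 21.7 FPKM in any library.

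RefSeq start sites on GRCm38.p6 were matched to 46 of the 57 Rab genes, and the 250 bases upstream of the site nearest to the deposited gene start were searched on both strands for 6 motifs. The promoters of 4 genes are shown because these genes passed the criteria described below and their windows hold no annotated exon. They are Rab1a (chr11:20201162-20201411, plus strand), which was lower in mature cells, and Rab9 (chrX:166479868-166480117, minus strand), Rab27a (chr9:73044560-73044809, plus strand) and Rab39 (chr9:53706233-53706482, minus strand), which were higher. Capitals mark the GC box (GGGCGG or its complement), the one motif of the search that occurred in these 4 windows.
Rab1a: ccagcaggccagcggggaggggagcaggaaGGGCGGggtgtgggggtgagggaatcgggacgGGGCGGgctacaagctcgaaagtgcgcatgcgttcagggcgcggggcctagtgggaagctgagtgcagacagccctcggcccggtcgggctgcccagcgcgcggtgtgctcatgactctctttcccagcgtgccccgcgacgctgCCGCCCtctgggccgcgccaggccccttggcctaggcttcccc
Rab9: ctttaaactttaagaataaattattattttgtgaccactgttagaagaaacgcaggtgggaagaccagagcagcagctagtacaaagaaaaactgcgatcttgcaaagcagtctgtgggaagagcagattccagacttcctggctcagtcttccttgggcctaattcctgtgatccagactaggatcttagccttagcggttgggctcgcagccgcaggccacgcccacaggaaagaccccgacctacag
Rab27a: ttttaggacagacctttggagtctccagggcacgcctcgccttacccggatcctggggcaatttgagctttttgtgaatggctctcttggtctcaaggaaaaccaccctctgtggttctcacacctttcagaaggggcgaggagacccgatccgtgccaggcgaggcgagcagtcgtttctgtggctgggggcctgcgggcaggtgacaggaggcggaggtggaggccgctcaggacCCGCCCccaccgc
Rab39: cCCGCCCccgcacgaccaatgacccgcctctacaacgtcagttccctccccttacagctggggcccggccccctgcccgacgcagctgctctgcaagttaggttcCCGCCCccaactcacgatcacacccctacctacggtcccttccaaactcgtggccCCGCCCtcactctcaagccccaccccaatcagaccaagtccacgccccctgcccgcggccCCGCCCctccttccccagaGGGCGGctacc
The GC box occurred 3 times for Rab1a, 1 time for Rab27a, 5 times for Rab39 and not at all for Rab9. A GC box stood in 67.4% of the Rab promoters, in 56.4% of those of all tested genes and in 32.7% of all 32851 promoters. The median GC content was 60.6%, 59.2% and 52.4% in these 3 sets.

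The NF-kappa B motif was in the windows of 2 of 46 Rab genes (4.35%) and in none of the 11 called genes that had a promoter. It was in 8.8% of the promoters of tested genes and 7.25% of all promoters. The E-box CACGTG stood in 8.7% of Rab promoters against 8.09% of tested genes, the AP-1 motif TGANTCA in 2.17% against 4.67%, the ISRE-like motif (2 copies of GAAA spaced by 2 bases) in 2.17% against 2.8% and the PU.1-like motif GAGGAA in 13.0% against 22.8%. These matches are letters in a window and no measure of binding.

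Of the 56 Rab genes with enough counts to be tested, 9 were higher and 6 were lower in mature BMDCs when a call asked for a change of 1 or more on the log2 scale in either direction together with an adjusted p below 0.05 (edgeR quasi-likelihood test, adjusted by Benjamini-Hochberg over all 17461 tested genes). The 15 calls are 26.8% of the tested Rab genes, beside 23.1% of all tested genes. The 9 rises are 16.1%, beside 13.2% for all genes, and the 6 falls are 10.7%, beside 9.95%. The share of called genes among the Rab genes was thus near that of the whole table. In bulk RNA, fewer cells of a type and less RNA per cell cannot be told apart.

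The risen genes were Rab17, Rab26, Rab30, Rab39, Rab44, Rab6b, Rab27a, Rab9 and Rab13, and the fallen genes were Rab7b, Rab15, Rab19, Rab3d, Rab32 and Rab1a. Among the 41 tested Rab genes with a mean of at least 1 FPKM over the 7 libraries, 10 were called (24.4%), beside 21.2% of all genes at that level. Of the 16 Rab genes under 1 FPKM, 15 were tested, and 4 rose and 1 fell (33.3% called), beside 26.7% of all tested genes at that level. Of the 27 with at least 10 FPKM, 5 were called (18.5%), beside 20.9% of all tested genes. Rab17 (0, 3 and 0 counts in immature libraries) and Rab26 (2, 14 and 0 counts) passed the filter on low counts only through their mature libraries. Their direction was thus set by entry to the test, and their calls are no separate support for a rise. Rab39 (11, 8 and 19 counts) did not pass the filter on its immature libraries alone, so its call is no separate support either. The one untested gene, Rab40b, which encodes a Rab with a SOCS box, had no count in an immature library and 3, 6, 14 and 12 counts in mature replicates 1 to 4.

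Changes short of the fold criterion were frequent. An adjusted p under 0.05 whatever the fold was reached by 33 of 56 Rab genes (58.9%), 17 higher and 16 lower, beside 46.1% of all tested genes. For 36 of the 56 (64.3%) the immature and mature ranges of CPM were separate, beside 52.1% of all tested genes. The median log2 fold change was -0.02 over the Rab genes and 0.05 over all tested genes, and the median of its absolute size was 0.63 and 0.57. CPM is a count after TMM normalization, put on the same library size for all. Log2 fold changes (log2 FC) are mature over immature throughout, and SE is their standard error.

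**Figure D1:**
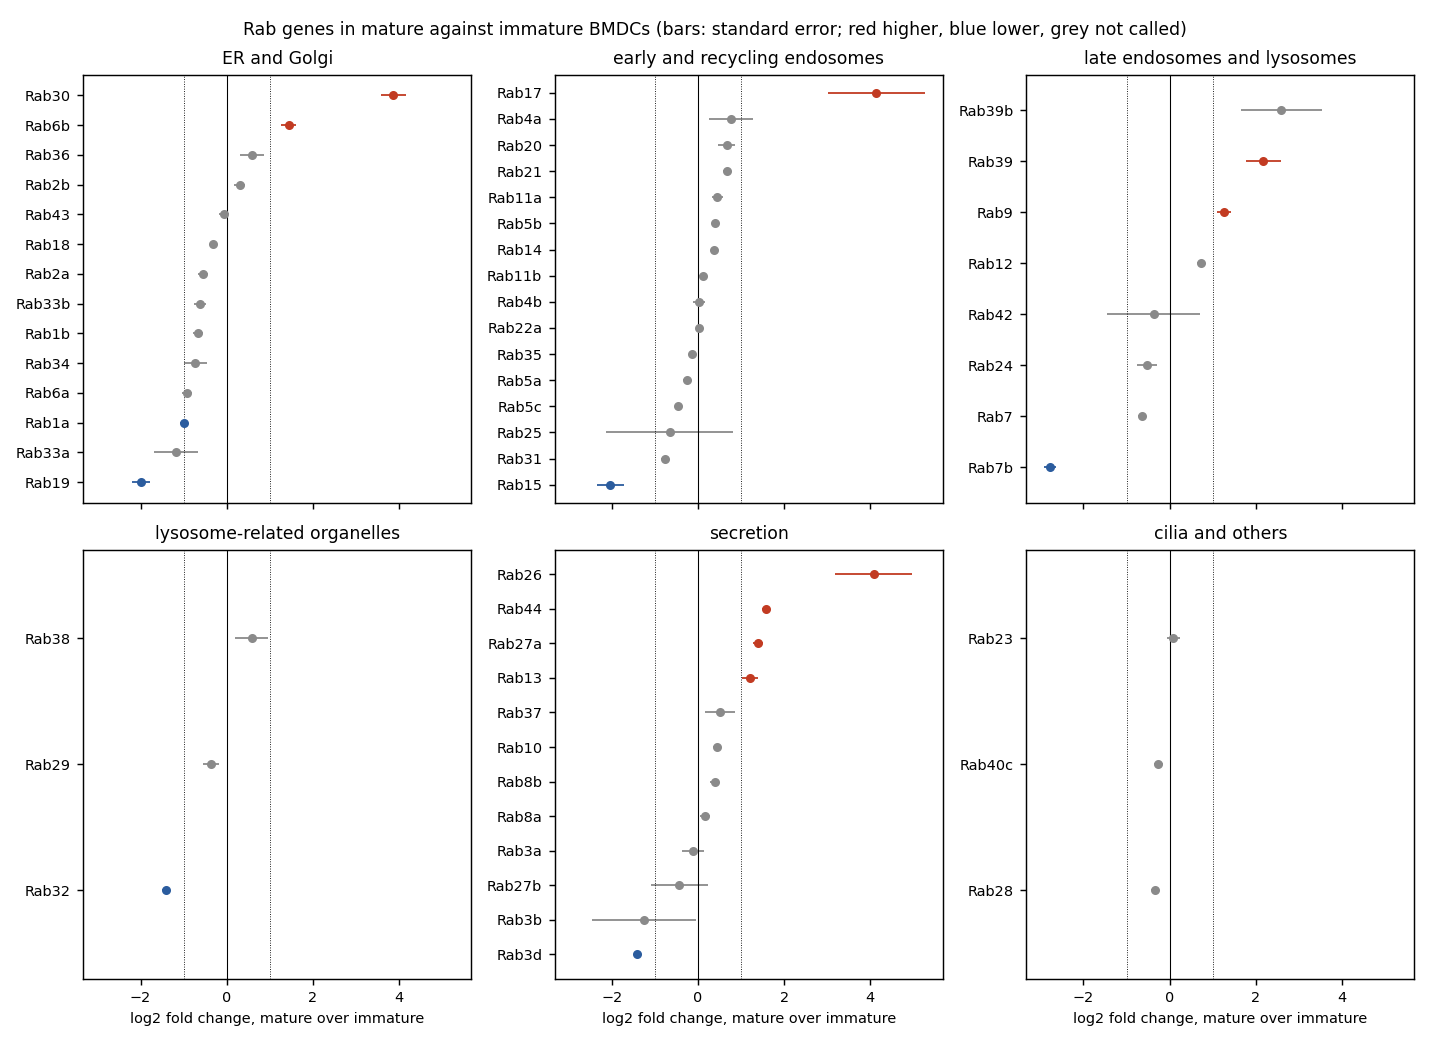
The x axis gives the log2 FC (mature over immature) of each of the 56 tested Rab genes, 1 point per gene with its standard error (SE) as a bar, in 6 panels by the compartment the Rab is best known for. Red points passed the criteria as higher, blue as lower, and grey did not pass. The dotted lines stand at a log2 FC of -1 and 1. Rab17, Rab26 and Rab30 lie farthest to the right and Rab7b farthest to the left.

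Of the 12 Rab genes of secretion, 4 were called higher and 1 lower, beside 13.2% and 9.95% of all tested genes, and their median log2 FC was 0.41. These Rabs bring vesicles and granules from the Golgi and from storage to the plasma membrane. Their summed level was 182 to 193 FPKM in immature and 217 to 264 FPKM in mature libraries.

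Rab27a (ENSMUSG00000032202, chromosome 9 from 73044854 to 73097629), which docks secretory granules and multivesicular bodies at the plasma membrane and is known for exosome release, rose. It measured 15.9, 14.2 and 12.9 CPM in immature replicates 1 to 3 and 42.6, 35.3, 36.5 and 36.6 CPM in mature replicates 1 to 4. Every mature library was above every immature one, and the log2 FC was 1.40 (SE 0.11, edgeR adjusted p = 1.73e-05). Its paralog Rab27b had 6 to 21 counts per library, and no difference was detected (log2 FC -0.44, SE 0.66, edgeR adjusted p = 0.626). A processed pseudogene in the annotation shares 3.84% of the exon bases of Rab27a.

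Rab44 (ENSMUSG00000064147), an atypical large Rab known from mast cell granules, had 28.7, 27.4 and 25.01 CPM in immature and 73.6, 82.6, 79.9 and 86.2 CPM in mature libraries. The groups lay far apart, at a log2 FC of 1.58 (SE 0.093, edgeR adjusted p = 2.65e-06). The mast cell and basophil markers also summed higher in mature libraries, at 3.65 to 5.25 FPKM against 0.75 to 1.0 FPKM, with 1 of 3 tested genes higher, and their part in the rise of Rab44 was not tested. Rab13 (ENSMUSG00000027935), a Rab of junction and surface traffic, had 9.98, 11.9 and 13.6 CPM in immature and 26.7, 22.6, 35.7 and 24.1 CPM in mature libraries. Mature replicate 3 was the highest, the groups did not overlap, and the log2 FC was 1.21 (SE 0.18, edgeR adjusted p = 0.000707).

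Rab26 (ENSMUSG00000079657), a Rab of secretory granules, was close to absent in immature cells, with 2, 14 and 0 counts, and had 107, 91, 81 and 116 counts in mature replicates 1 to 4. Its log2 FC was 4.08 (SE 0.89, edgeR adjusted p = 0.0056), at a level of only 0.518 ± 0.072 FPKM (SD, n = 4) in mature cells. The log2 FC rested on the few immature counts, at 6.44 without immature replicate 2 (edgeR adjusted p = 0.000616) and 3.47 without immature replicate 3 (edgeR adjusted p = 0.00733), and it was called in both. Exons of Traf7 on the same strand share 9.36% of its exon bases.

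Rab3d (ENSMUSG00000019066), the Rab3 form of secretory granules outside neurons, fell. It had 159, 147 and 146 CPM in immature and 58.4, 51.3, 55.4 and 61.6 CPM in mature libraries, and the groups lay far apart. The log2 FC was -1.41 (SE 0.086, edgeR adjusted p = 3.16e-06). The neuronal form Rab3a did not pass the test, at 2.79 to 3.13 CPM in immature and 1.97 to 3.84 CPM in mature libraries. Rab3b, at 15, 12 and 6 counts in immature and 16, 4, 0 and 0 counts in mature libraries, had a log2 FC of -1.25 that its SE of 1.21 nearly equaled (edgeR adjusted p = 0.435).

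The abundant members of the route from the Golgi to the surface changed less. Rab8b rose from 373 ± 16.1 CPM to 487 ± 57.8 CPM (mean ± SD, n = 3 and 4, as for all such pairs here), a log2 FC of 0.38 (edgeR adjusted p = 0.0168), and Rab10 from 180.4 ± 8.77 CPM to 245 ± 18.8 CPM, a log2 FC of 0.44 (edgeR adjusted p = 0.0031). Both were under the fold criterion, with no overlap between groups, and the edgeR adjusted p of Rab8b was 0.0507 to 0.0767 when an immature library was left out. Rab8a, at 138 to 143 CPM in immature and 140.4 to 188 CPM in mature libraries, overlapped (edgeR adjusted p = 0.273). Rab37, a granule Rab, overlapped too, at 54 to 77 counts in immature and 66 to 120 counts in mature libraries.

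Among the 8 Rab genes of late endosomes and lysosomes, 2 were higher and 1 was lower, beside 13.2% and 9.95% of all tested genes. This group held both the highest Rab gene and the strongest fall. Rab7 (ENSMUSG00000079477), the main Rab of late endosomes and lysosomes, had 215, 212 and 219 FPKM in immature and 147, 147, 143 and 153 FPKM in mature libraries, the highest level of any Rab gene in each library. It fell by 0.65 on the log2 scale of the counts (SE 0.073, edgeR adjusted p = 0.000125), short of the fold criterion.

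Rab7b (ENSMUSG00000052688, chromosome 1 from 131688695 to 131715439), a late endosomal Rab known from myeloid cells, fell most. It had 102, 84.1 and 94.5 CPM in immature replicates 1 to 3 and 17.1, 12.3, 11.6 and 13.7 CPM in mature replicates 1 to 4. The mature libraries were all far below the immature ones, at a log2 FC of -2.77 (SE 0.14, edgeR adjusted p = 1.39e-06), or 6.83-fold lower. The macrophage markers given above fell in the same libraries, and their part in this fall was not tested.

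Rab9 (ENSMUSG00000079316), which returns cargo from late endosomes to the Golgi, rose. Its values were 26.2, 25 and 28.9 CPM in immature and 57.6, 58.0, 83.5 and 57.5 CPM in mature libraries. Mature replicate 3 was well above the other mature libraries, which agreed closely among themselves. The log2 FC was 1.27 (SE 0.15, edgeR adjusted p = 0.000189) with it and 1.14 without it.

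Rab39 (ENSMUSG00000055069), a Rab of late endosomes and phagosomes, had 11, 8 and 19 counts in immature and 58, 62, 63 and 51 counts in mature libraries. The groups were well separated at this low level, with a log2 FC of 2.18 (SE 0.41, edgeR adjusted p = 0.00258). Entry of Rab39 to the test needed its mature libraries, as said above. Its paralog Rab39b, best known from neurons, showed 10, 8 and 0 counts in immature and 56, 64, 15 and 27 counts in mature libraries. Rab39b had the largest fold among the genes that were not called, with a log2 FC of 2.59 (SE 0.94, edgeR adjusted p = 0.0512), and it was called without mature replicate 3, at 2.86. Rab12, which carries recycling cargo to lysosomes, rose from 39.8 ± 1.54 CPM to 65.9 ± 7.14 CPM, a log2 FC of 0.73 (edgeR adjusted p = 0.000418) that is under the fold criterion. Rab24, tied to autophagy, and Rab42 did not pass the test, and 62.4% of the exon bases of Rab24 overlap Prelid1 on the other strand.

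**Figure D2:**
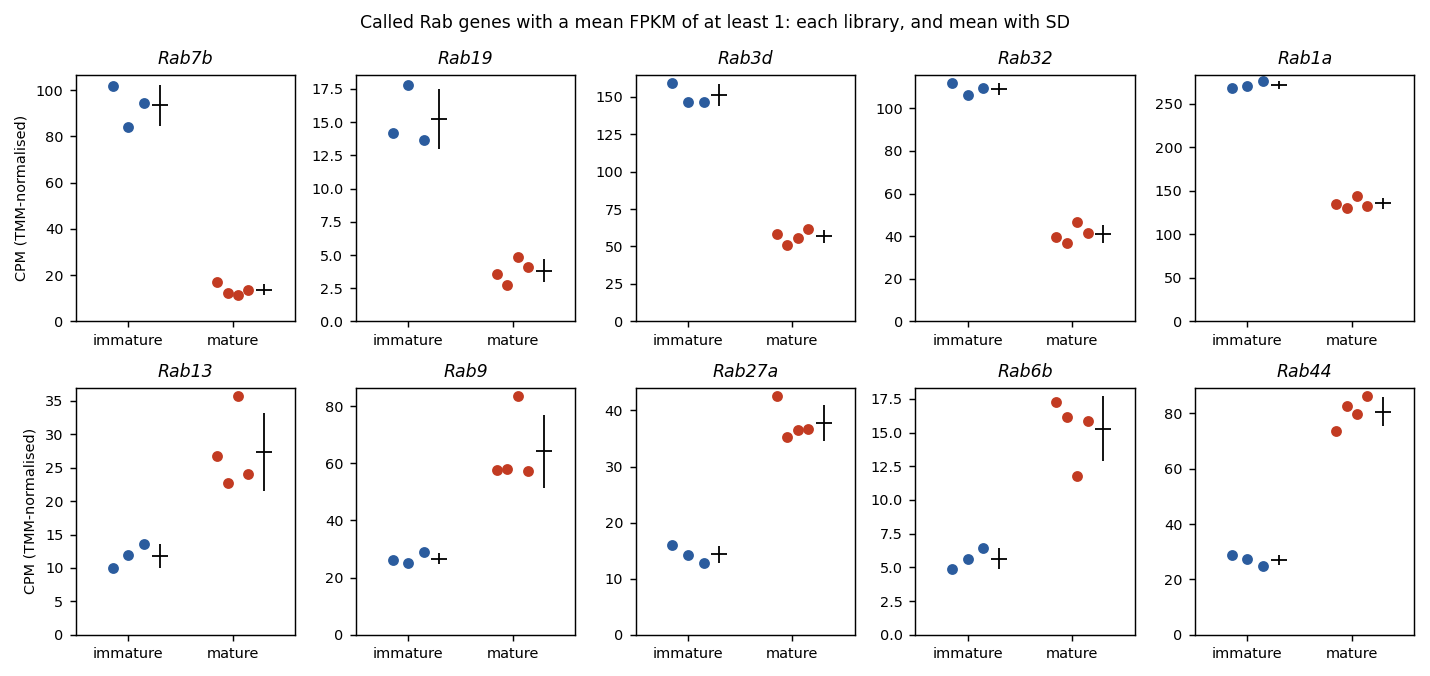
Each panel plots the CPM of 1 of the 10 called Rab genes with a mean of at least 1 FPKM, 1 point per library for 3 immature (blue) and 4 mature (red) libraries, with the mean and SD as a cross beside the points. All y axes start at 0. In every panel the groups do not overlap, and mature replicate 3 is the highest mature point for Rab9, Rab13, Rab1a, Rab19 and Rab32 and the lowest for Rab6b and Rab7b.

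Of the 3 Rab genes of lysosome-related organelles, Rab32 was lower, beside 9.95% of all tested genes, and Rab29 and Rab38 did not pass the test. Rab32 (ENSMUSG00000019832), which acts in lysosome-related organelles and at mitochondria, had 112.0, 106.3 and 109.5 CPM in immature and 39.5, 37.0, 46.8 and 41.6 CPM in mature libraries. The values within each group were close, and the log2 FC was -1.41 (SE 0.093, edgeR adjusted p = 5.26e-06). Rab29, a relative known to bind the kinase LRRK2, ranged from 19.0 to 24.2 CPM in immature and from 13.8 to 22.3 CPM in mature libraries, with overlap (edgeR adjusted p = 0.128). Rab38, the melanosome relative, had 67 to 132 counts in immature and 71 to 177 counts in mature libraries (edgeR adjusted p = 0.242). The group's summed level was 52.2 to 56.1 FPKM in immature and 26.8 to 32.9 FPKM in mature libraries.

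The 14 Rab genes of the endoplasmic reticulum (ER) and Golgi had a median log2 FC of -0.58. Of these, 2 were called higher and 2 lower, beside 13.2% and 9.95% of all tested genes. Below the fold criterion 5 more fell with an adjusted p under 0.05, so 7 of 14 were lower at that threshold and 2 were higher, beside 22.9% and 23.2% of all tested genes. Their summed level was 280 to 284 FPKM in immature and 189 to 195 FPKM in mature libraries.

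Rab1a (ENSMUSG00000020149), which carries vesicles from the ER to the Golgi, had 268, 271 and 277 CPM in immature and 134.9, 130.4, 145 and 133 CPM in mature libraries. Its groups were tight and far apart (SE 0.071, edgeR adjusted p = 7.46e-06), but the log2 FC of -1.0015 lay on the criterion, and 13 of 16 alternative settings put it just short, at -0.88 to -0.997. Its paralog Rab1b fell too, from 243 ± 1.34 CPM to 152 ± 23.3 CPM (log2 FC -0.68, edgeR adjusted p = 0.00148). Rab2a, of the same early route, fell by 0.55 on the log2 scale (edgeR adjusted p = 0.00325), from 95.6 to 99.99 CPM down to 60.6 to 81.0 CPM.

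Rab19 (ENSMUSG00000029923), a Golgi Rab, had 14.2, 17.8 and 13.7 CPM in immature and 3.55, 2.77, 4.88 and 4.13 CPM in mature libraries. This was a fall with no overlap, at a log2 FC of -1.99 (SE 0.20, edgeR adjusted p = 6.82e-05). Rab33a, a further Golgi Rab, had 56 to 72 counts in immature and 33, 12, 48 and 23 counts in mature libraries. It was not called (log2 FC -1.18, edgeR adjusted p = 0.093), but passed at -1.63 without mature replicate 3.

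Rab30 (ENSMUSG00000030643, chromosome 7 from 92741603 to 92844535), also of the Golgi, rose from near absence. It had 12, 15 and 23 counts in immature and 312, 238, 192 and 278 counts in mature replicates 1 to 4. The log2 FC of 3.87 (SE 0.28, edgeR adjusted p = 8.68e-06) came with a mature level of only 0.403 ± 0.064 FPKM (SD, n = 4).

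Rab6a and Rab6b went in different directions. Rab6a, which acts within the Golgi and on routes out of it, fell from 122 to 133 CPM down to 55.6 to 75.4 CPM, at a log2 FC of -0.92 (edgeR adjusted p = 0.000167) short of the fold criterion. Rab6b (ENSMUSG00000032549), best known from neurons, had 4.86, 5.64 and 6.42 CPM in immature and 17.3, 16.2, 11.8 and 15.9 CPM in mature libraries. It was higher in every mature library, with a log2 FC of 1.44 (SE 0.17, edgeR adjusted p = 0.00017). Of the other members of the group, Rab33b and Rab18 fell under the fold criterion and Rab2b, Rab34, Rab36 and Rab43 did not pass the test. Rab43 shares 75.4% of its exon bases with Gm45140 on the same strand and Rab2b 59.3% with Gm43766 on the other strand, so their counts are uncertain.

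The 16 Rab genes of early and recycling endosomes were mostly below the fold criterion, with a median log2 FC of 0.07. Of these, 1 was higher and 1 lower, beside 13.2% and 9.95% of all tested genes. Among the rest, 5 more rose and 3 more fell with an adjusted p under 0.05. At that threshold 6 of 16 were thus higher and 4 lower, beside 23.2% and 22.9% of all tested genes. The group's summed level was 336 to 340.3 FPKM in immature and 352 to 362 FPKM in mature libraries.

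Rab15 (ENSMUSG00000021062), an endocytic Rab, had 107, 122 and 166 counts in immature and 28, 26, 37 and 39 counts in mature libraries. It was lower in all 4 mature libraries, at a log2 FC of -2.04 (SE 0.31, edgeR adjusted p = 0.000732). Rab17 (ENSMUSG00000026304), a recycling endosome Rab known from epithelia, had 0, 3 and 0 counts in immature and 22, 37, 7 and 20 counts in mature libraries, so its immature group lay at or under the floor of 3 counts per library and the mature mean was at least 6.66-fold higher. Its call (log2 FC 4.14, edgeR adjusted p = 0.0162) was lost without immature replicate 1 (3.60, adjusted p = 0.0579) and without immature replicate 3 (3.57, adjusted p = 0.0582). Without immature replicate 2, the one immature library with counts, it was 7.39 (edgeR adjusted p = 0.00992). It also failed to be called without mature replicate 1, 2 or 4, where too few counts were left for the test. The 6 epithelial markers summed to 17.3 to 21.3 FPKM in immature and 13.9 to 21.7 FPKM in mature libraries, with 1 of 5 tested genes higher, and their part in the rise of Rab17 was not tested. Mature replicate 2, with the highest count of Rab17, was also the library with kidney markers, whose part was not tested either. Rab25, the epithelial relative of Rab11a, had 20 counts at most in any library.

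The Rab5 genes, which organize early endosomes, split. Rab5b rose from 147 ± 9.82 CPM to 194 ± 16.0 CPM (log2 FC 0.40, edgeR adjusted p = 0.00697), while Rab5c fell from 302 ± 10.8 CPM to 218 ± 13.2 CPM (log2 FC -0.47, edgeR adjusted p = 0.00118). Rab5a fell less, from 96.3 to 109 CPM down to 76.8 to 91.0 CPM (log2 FC -0.26, edgeR adjusted p = 0.0387). None of these reached the fold criterion.

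Rab21, an early endosomal Rab tied to integrin traffic, rose from 97.5 ± 1.06 CPM to 154 ± 7.86 CPM (log2 FC 0.66, edgeR adjusted p = 0.000113). Rab20, found on endosomes and phagosomes, rose from 16.5 ± 1.42 CPM to 26.2 ± 7.10 CPM (log2 FC 0.67, edgeR adjusted p = 0.0213), with 25.6% of its exon bases under a transcript of the other strand. Rab14 and Rab11a rose by 0.38 and 0.45 on the log2 scale. Rab11a, the main recycling endosome Rab, had 77.1, 71.8 and 84.2 CPM in immature and 97.5, 97.4, 133.8 and 95.9 CPM in mature libraries, where replicate 3 stood apart. Its edgeR adjusted p was 0.0238, but 0.0742 without immature replicate 1 and 0.0974 without immature replicate 2. Rab31 fell from 77.1 ± 6.23 CPM to 45.0 ± 2.22 CPM (log2 FC -0.78, edgeR adjusted p = 0.000102). Rab35, of fast recycling to the surface, had 114.5 to 118 CPM in immature and 99.1 to 116 CPM in mature libraries (edgeR adjusted p = 0.196, and 0.0178 without mature replicate 3). No difference was detected for Rab4a, Rab4b, Rab11b and Rab22a, and 65.0% of the exon bases of Rab4b belong also to Gm21983.

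The last group of 4, of cilia and other routes, held Rab23, Rab28, Rab40b and Rab40c. None of the 3 tested genes was called, and Rab28 alone had an adjusted p under 0.05, at a log2 FC of -0.34 (edgeR adjusted p = 0.011) from 25.4 to 27.4 CPM down to 20.02 to 22.1 CPM.

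Levels are compared between genes per length, as FPKM. The 12 Rab genes of highest mean FPKM were, in order, Rab7, Rab5c, Rab8b, Rab1b, Rab10, Rab1a, Rab5b, Rab35, Rab2a, Rab8a, Rab11a and Rab32. Of these 12, 2 were called, Rab1a and Rab32, beside 20.9% of all tested genes with a mean of at least 10 FPKM. The 12 made up 70.5% to 71.2% of the summed Rab FPKM in immature and 65.3% to 66.7% in mature libraries. Rab7 alone gave 18.7% to 19.3% of it in immature and 13.9% to 14.5% in mature libraries.

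The summed Rab FPKM was 1151, 1133 and 1132 in immature replicates 1 to 3 and 1055, 1051, 1031 and 1054 in mature replicates 1 to 4. The mature sums were all below the immature ones, at 1048 ± 11.5 (SD, n = 4) against 1138 ± 10.6 (SD, n = 3), a ratio of 0.92. The difference was larger than the spread between replicates, and an exact permutation test on 3 against 4 libraries cannot go below 0.0571. Without Rab7 the ratio was 0.975. The 9 genes called higher summed to 26.7 to 27.4 FPKM in immature and 71.0 to 81.3 FPKM in mature libraries, and the 6 called lower to 158 to 166 FPKM and 65.9 to 69.8 FPKM. These last sums follow from how the genes were chosen and are given as a description.

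**Figure D3:**
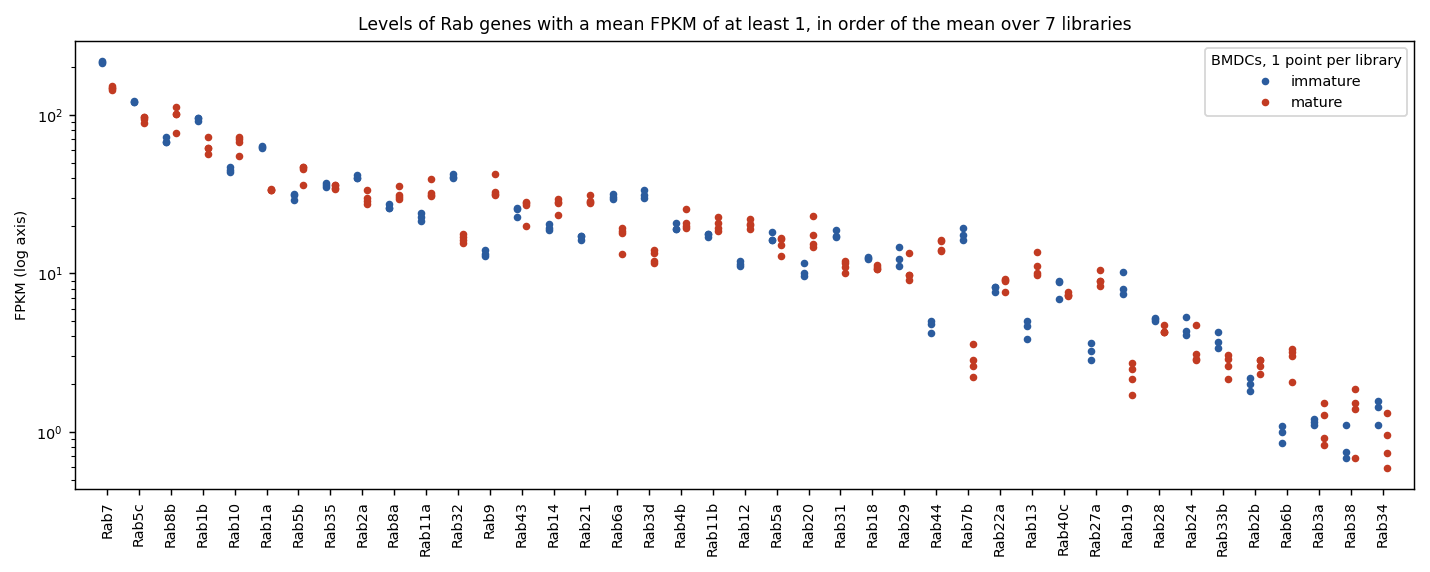
The y axis is the FPKM on a log scale and the x axis lists the 41 Rab genes with a mean of at least 1 FPKM in order of that mean, with 1 point per library, blue for 3 immature and red for 4 mature libraries. Rab7 is at the left with 143 to 219 FPKM. The blue and red points of Rab44 and Rab7b, next to each other near the middle, lie in opposite order.

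The mix of forms within families of paralogs was also compared. A paralog's share is its percent of the family's summed FPKM in a library, and 12 families with 16 shares were compared, 1 for each pair and 3 for each trio of paralogs. For 12 of the 16 the groups did not overlap, and each of these had an exact two-sided permutation p of 0.0571, the smallest that 35 ways of labeling 7 libraries allow. Adjusted by Benjamini-Hochberg over the 16 shares, the smallest exact permutation p was 0.0761. The CPM of single genes was separate between the groups for 52.1% of all tested genes, so separate shares were to be met often. The shifts below are given as a description. How reads that match more than 1 paralog were counted is not given in the sources used here, and the part of such reads in these shares was not tested.

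In the Rab5 family, Rab5b was 18.3%, 17.6% and 18.7% of the family in immature and 30.2%, 29.3%, 25.2% and 29.7% in mature libraries. Rab5c went the other way, from 71.7% ± 0.796 (SD, n = 3) to 61.4% ± 3.02 (SD, n = 4), and Rab5a made up 9.53% to 10.8% and 9.03% to 11.1% (exact permutation p = 0.914). Rab6b gave 2.63% to 3.49% of the Rab6 family in immature and 13.5% to 15.1% in mature libraries. Rab5c and Rab6a remained the highest of their families in all 7 libraries.

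Rab22a, for which no difference in CPM was detected, made up 28.8% to 32.5% of the sum with Rab31 in immature and 43.0% to 45.3% in mature libraries. Rab32 went from 75.2% ± 2.35 to 58.6% ± 3.63 of its family with Rab29 and Rab38, Rab29 from 23.2% ± 2.69 to 36.6% ± 2.93 and Rab38 from 1.56% ± 0.481 to 4.76% ± 1.53. Rab7b dropped from 7.13% to 8.31% of the Rab7 family down to 1.52% to 2.37%. Smaller shifts without overlap were measured for Rab1a (40.1% to 35%, group means), Rab11a (56.5% to 62.1%), Rab2b (4.71% to 8.26%) and Rab3a (3.54% to 8.27%). The shares of the Rab4, Rab8 and Rab33 families overlapped between groups, with exact permutation p of 0.229, 0.343 and 0.457.

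**Figure D4:**
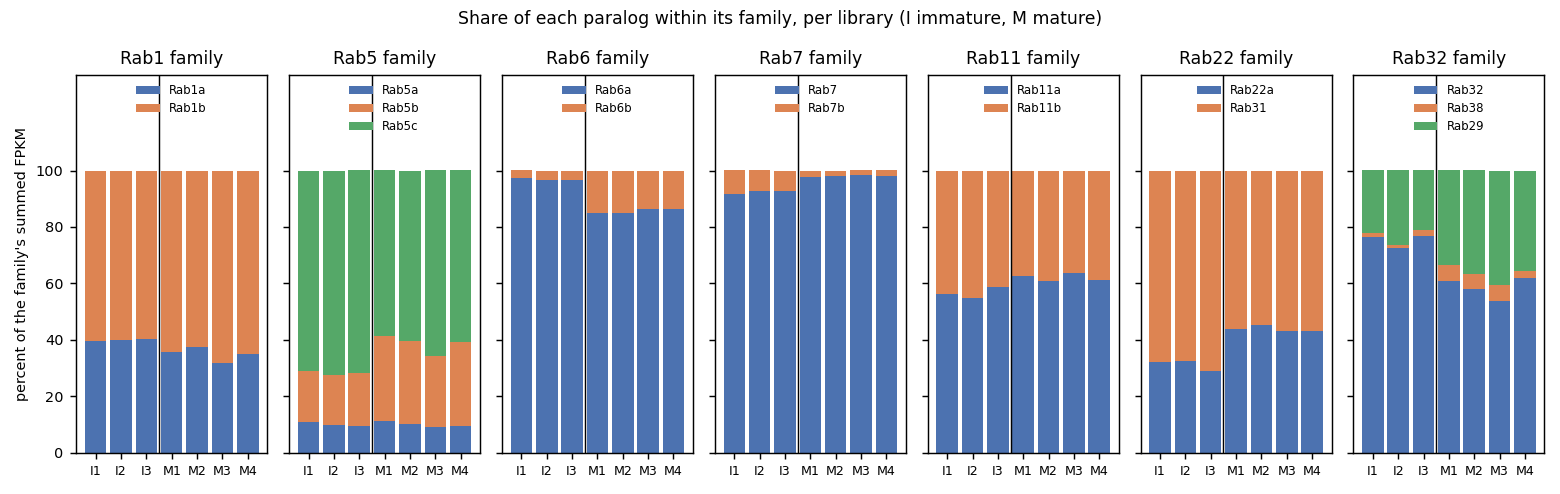
Each stacked bar is 1 library (I1 to I3 immature, M1 to M4 mature) and the y axis is the percent of the family's summed FPKM given by each paralog, in 7 families. The vertical line parts the groups. The share of Rab5b, Rab6b, Rab22a and Rab29 is larger in all 4 mature bars than in any immature bar, and that of Rab7b and Rab32 is smaller.

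The proteins that switch Rabs on and off, and those that read them, were described from 4 lists of 143 genes, of which 139 were in the table and 135 were tested. Of these 35 were called (25.9%), 22 higher and 13 lower, beside 23.1% of all tested genes. In 3 of the lists, 7 of 36 GEF genes were called (19.4%, 3 higher and 4 lower), 13 of 37 GAP genes (35.1%, 9 higher and 4 lower) and 14 of 55 effector genes (25.5%, 9 higher and 5 lower). The median log2 FCs of the lists, from -0.14 for GAPs to 0.10 for GDI and prenylation, lay near the 0.05 of all tested genes.

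Among GAP genes, Tbc1d4 and Rabgap1l rose at appreciable levels. Tbc1d4, whose protein is known for acting on the Rabs of glucose transporter vesicles such as Rab10, had 21.3, 19.0 and 17.4 CPM in immature and 218, 188, 159 and 175 CPM in mature libraries (log2 FC 3.26, edgeR adjusted p = 5.49e-07). Rabgap1l had 65.0 to 66.2 CPM in immature and 329 to 446 CPM in mature libraries (log2 FC 2.65, edgeR adjusted p = 8.88e-07). Tbc1d10c rose most, at a log2 FC of 3.88 (edgeR adjusted p = 2.28e-05), from 0.912 ± 0.455 CPM to 13.4 ± 2.41 CPM. The GAP genes of largest fall were Sgsm3 (log2 FC -1.26), Evi5 (-1.17), known to act on Rab11, and Tbc1d2 (-1.07), known to act on Rab7.

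Of the GEF genes, Rab3il1 fell from 80.2 to 89.9 CPM in immature down to 13.2 to 18.7 CPM in mature libraries, at a log2 FC of -2.46 (edgeR adjusted p = 1.16e-06), and Rin2, a GEF of Rab5, from 92.9 to 96.6 CPM down to 17.0 to 23.1 CPM, at -2.16 (edgeR adjusted p = 1.62e-06). Dennd4c, a GEF of Rab10, fell at -1.26. Dennd6b rose at 2.00, Dennd4a at 1.66 and Dennd3, a GEF of Rab12, at 1.07.

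Among effectors, Lrrk2, a kinase that phosphorylates Rab proteins, fell from 38.7 to 41.8 CPM down to 10.3 to 14.4 CPM, at a log2 FC of -1.71 (edgeR adjusted p = 1.08e-05). Plekhm1, which joins Rab7 to lysosome fusion, fell at -1.27, and Exoc6, of the exocyst tether, at -1.25. The effector genes of largest rise were at low levels: Sytl2, which binds Rab27a, reached 0.349 CPM at most, Myo5b, a motor recruited by Rab11, 3.13 CPM and Bicd1, an adaptor of Rab6, 5.82 CPM. Their log2 FCs were 3.42, 3.31 and 2.67. In immature libraries Sytl2 had 0, 0 and 4 counts and Myo5b 0, 16 and 16 counts. These libraries alone did not carry either gene through the filter on low counts. The calls of Sytl2 and Myo5b are thus no separate support for a rise. The 3.13 CPM of Myo5b was in mature replicate 2, the library with kidney markers, against 0.985, 1.04 and 1.98 CPM in mature replicates 1, 3 and 4. The part of kidney cells in it was not tested.

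**Figure D5:**
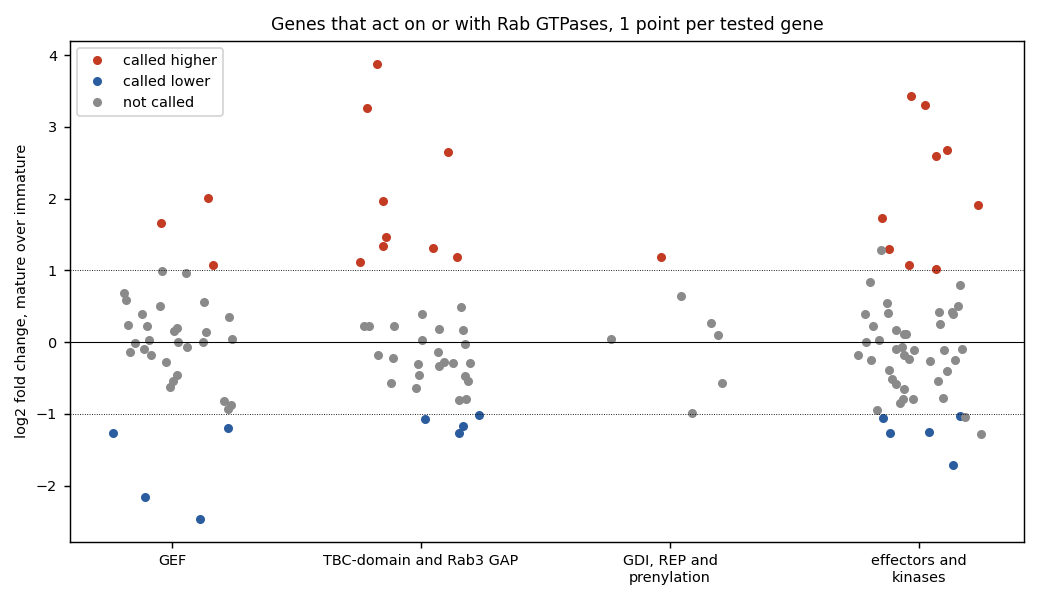
The y axis gives the log2 FC (mature over immature) of 135 tested genes that act on or with Rabs, 1 point per gene in 4 lists, spread sideways so that points can be seen. Red points passed the criteria as higher, blue as lower, and the dotted lines stand at -1 and 1. In the GAP list 9 points are red and 4 blue, with Tbc1d10c at the top at 3.88.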

How the data were processed

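RNA-seq of 3 immature and 4 mature BMDC libraries was analysed. The labels gave each library its group and number, and the paper the culture conditions. Polyadenylated RNA was sequenced in pairs after dUTP marking of the second strand, and whether counting used the strand is not given in the sources used here. The table deposited by the authors holds raw whole-number counts for each gene in each library. It also holds FPKM, in which the authors scaled fragments by gene length and library total. The submitters' processing notes name cutadapt 1.9, HISAT2 2.2.1, StringTie 2.1.6, DESeq2, edgeR and build mm9, with no role or order. The deposited coordinates are those of GRCm38: of 28588 gene IDs shared with GENCODE M21, 25805 have identical coordinates, and those of 51 of the 57 Rab genes do. No per-sample column was left unmapped.

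Counts of the whole table were tested in R 4.3.3 with edgeR 4.0.16 (its filter on low counts, TMM normalization, quasi-likelihood test on all 7 libraries), adjusted by Benjamini-Hochberg over 17461 genes. A call required a change of 1 or more on the log2 scale, in either direction, and an adjusted p below 0.05, the paper's criteria. The standard error (SE) follows from the log2 fold change and its F statistic, whose root is their ratio. The floor was set at 3 counts per library, which covers counting error only, since PCR copies of a molecule were not told apart. Single values were compared by an exact two-sided permutation test over 35 labelings. The test was checked on simulated counts with known changes. Python 3.11.15 with pandas 2.3.3 built the tables, and matplotlib 3.10.9 drew the figures.

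The Rab genes and the lists of compartments, paralogs, regulators and markers were chosen with earlier results of these data known. Genes are named by a rule. It takes every called Rab gene, the 12 of highest mean FPKM, the 3 of largest change among those not called and, in each regulator list, the 3 called genes of largest change per direction. Other Rab genes are named to complete their group, and 1 regulator gene that the rule takes is not reported here. Alternatives were DESeq2 1.42.0, no filter, a filter of 1 FPKM in 3 libraries, limma 3.58.1 on log2(FPKM + 1) and log2(FPKM + 0.1), upper quartile normalization, a TPM scale, the replicate number as a block and the omission of each library. Promoter sequences are RefSeq's on GRCm38.p6. Protein sequences were not used here.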

Additional observations from a re-analysis of the deposited data

Results flagged for a closer look

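The CPM of Rab9 and Rab11a in the 4 mature libraries each held 1 library far from the rest, mature replicate 3 in both cases. For Rab9 the gap from replicate 3 to its nearest neighbor was 0.978 of the range of the mature libraries, and for Rab11a it was 0.959, both above Dixon's critical value for 4 libraries. In all, 29 values were compared in this way, of which chance passes about 1.4. Without mature replicate 3 the log2 fold change was 1.14 for Rab9 and 0.34 for Rab11a, with edgeR adjusted p of 5.93e-07 and 0.000966.

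Mature replicate 3 was the highest or the lowest of the 4 mature libraries in CPM for 36 of the 41 Rab genes with a mean of at least 1 FPKM, the highest for 23 and the lowest for 13. Each other mature library was at an extreme for 11 to 18. The Rab genes for which it was highest had a median of 2300 exon bases, and those for which it was lowest 4624. The part of transcript length, or of the library's preparation, in these values was not tested.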

How the results depend on the processing

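The 28 named Rab genes had 418 values under other settings, since a gene that a setting did not test gave none. Of these, 394 kept their direction and their side of the criteria, 18 lost the call, 5 gained it and 1 reversed. Calls lost because a gene left the test are not among the 18, and this befell Rab15, Rab17, Rab26, Rab30 and Rab39. Rab7b, Rab19, Rab3d, Rab32, Rab44, Rab27a, Rab9 and Rab13 were called under every setting. Rab1a was called under 3 of 16. The filter of 1 FPKM in 3 libraries left 5 Rab genes higher and 1370 genes higher in all, since it removes Rab15, Rab17, Rab26, Rab30 and Rab39 from the test. limma on log2(FPKM + 1) with that filter gave 4 Rab genes higher, 18 Rab regulators called, 946 genes higher and 822 lower, and with a pseudocount of 0.1 it gave 5 Rab genes and 1390 genes higher. Rab6b was called under all settings but limma on log2(FPKM + 1), at 0.96. Fold changes on the 2 limma scales are understated for low genes. Rab40b was called by DESeq2, without the filter and with immature replicate 1, 2 or 3 left out. It had no count in an immature library, so these calls could only be rises and are no separate support for one. The ratio of summed Rab levels was 0.885 in TPM and 0.975 without Rab7. Upper quartile normalization moved the median log2 fold change of all genes by 0.11 and the share of higher among called genes from 57.0% to 63.3%, and Rab43, not called, then changed sign.

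With each library left out in turn, 8 to 10 Rab genes were higher and 5 to 7 lower, 32 to 36 regulators were called, 1940 to 2306 genes were higher and 1633 to 1759 lower, and the ratio of sums was 0.917 to 0.925. Same-numbered libraries did not deviate together (r = 0.0285, -0.0011 and 0.0144 for replicates 1 to 3). With the replicate number as a block, 14 Rab genes were called, 13 of them among the 15, with Rab17 and Rab1a lost and Rab39b gained, and 1791 genes were higher and 1689 lower, against 13 Rab genes, 1951 higher and 1716 lower in the same 6 libraries without the block. That last fit and the one with mature replicate 1 as the only mature library were added after seeing the data. In the latter, whose lone mature library is assumed to vary like the immature ones, 12 Rab genes were called, Rab39 had an adjusted p of 0.0537 (edgeR) and Rab3b reversed, to a log2 fold change of 0.39. The depth limits Rab17, Rab40b, Rab42, Rab25, Rab3b and Rab27b, for which a difference could be missed at this depth.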

Other observations

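Outside the rule for named genes, and chosen after their values were seen, other genes that act on or with Rabs were also called. Tbc1d17, which encodes a TBC-domain GAP, rose from 120 to 142 CPM in immature up to 462 to 590 CPM in mature libraries, at a log2 fold change of 1.96 (edgeR adjusted p = 2.55e-06). Lrrk1, a kinase known to phosphorylate Rab7, had 110 to 117 CPM in immature and 307 to 487 CPM in mature libraries, at a log2 fold change of 1.91 (edgeR adjusted p = 2.17e-05), whereas Lrrk2 fell. Myrip, which joins Rab27a to myosin, rose from 0.759 to 1.71 CPM up to 6.52 to 8.96 CPM, at a log2 fold change of 2.59 (edgeR adjusted p = 0.000121). Vps39, a subunit of the HOPS tether that works with Rab7, rose from 64.6 to 68.6 CPM up to 117 to 144 CPM. Its log2 fold change of 1.02 (SE 0.095, edgeR adjusted p = 3.99e-05) lay just over the criterion. Vps41, of the same tether, was not called and its groups overlapped (log2 fold change 0.11, edgeR adjusted p = 0.234). Plekhm1, of the same late endosomal route, fell.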
